A study of Capra hircus with 3 samples.

Results

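The scaffold genes of the sarcomere, the repeating contractile unit of striated muscle, were followed in the longissimus dorsi of goats (Capra hircus). Members were taken from the deposited expression table by the product text of each row: titin, nebulin, the 3 myomesins, filamin C, the slow and fast types of myosin binding protein C, and alpha-actinins 2 and 3. The 12 rows described here, of 24689 in all, are 10 genes (TTN, NEB, MYOM1, MYOM2, MYOM3, FLNC, MYBPC1, MYBPC2, ACTN2 and ACTN3) and 2 further rows that are also called titin-like. By gene number, all 10 genes carried the same symbol in a RefSeq table of the goat. The set is wider than thick-filament proteins, since nebulin, filamin C and the alpha-actinins belong to the thin filament and the Z-disc.

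RNA sequencing was done on 1 library of each of 3 postnatal groups: kid at 2 months, youth at 9 months and adult at 24 months of age. The sources used here give no genotype, treatment, breed or sex, nor the number of animals behind a library. The extraction protocol names mammary tissue while the tissue label names longissimus dorsi. With 1 library per group there is no replicate check and no test between ages, and each difference below describes these libraries.

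Titin is a giant elastic protein that runs from the Z-disc, the border of the sarcomere, to the M-band at its centre and holds the thick filaments in place. Nebulin lies along the thin filament and helps set its length, and the myomesins crosslink titin and myosin in the M-band. Myosin binding protein C decorates the thick filament and tunes the myosin heads, alpha-actinin crosslinks thin filaments in the Z-disc, and filamin C ties the Z-disc to the membrane. Several of these proteins come in forms that differ between fibre types. MYOM2 (M-protein), MYBPC2 and ACTN3 are known from fast fibres, MYBPC1 was first described in slow fibres but is also made in fast ones, MYOM1 and ACTN2 are found in all fibres, and MYOM3 has been described in fibres of intermediate speed.

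Levels are in FPKM as deposited: reads scaled to the length of the gene and to the size of the library. The library totals, worked out from the steps between the values, lay between 14920689 and 18399385 reads, and whole reads could be assigned to each of the 10 genes. Intervals below are exact 95% intervals of those reads. They cover counting error only, and reads are not known to be independent molecules. Of 8 skeletal muscle markers, the 7 with an entry were above 1 FPKM in every library, with a summed level of 55259 to 73696 FPKM. All 4 milk protein genes (CSN1S1, CSN2, CSN3, LALBA) were listed at 0 in all libraries. Markers of other cells differed between the libraries. The adipocyte list summed to 350, 195 and 202 FPKM in kid, youth and adult, the fibroblast list to 851, 1028 and 720.1, the Schwann cell list to 231, 136 and 93.2, the macrophage list to 50.5, 57.6 and 27.4, and the endothelial list to 176, 157 and 151. The smooth muscle and pericyte list summed to 4548, 4351 and 4613 FPKM, most of it desmin (DES), which skeletal fibres also make. Erythroid genes summed to at most 2.14 FPKM, and cardiac genes to 13.3, 7.72 and 10.1 FPKM, most of it TNNI3, with NPPA listed at 0. The part of these cells in the results was not tested, and in bulk tissue fewer cells of a type and less RNA per cell cannot be told apart.

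The 10 genes spanned a wide range of levels, and only MYBPC1, NEB, TTN and MYOM3 kept the same place in the 3 libraries. MYBPC1 (gene 102172972) stood first at 2408 (kid), 2305 (youth) and 2332 FPKM (adult), and MYOM3 (gene 102184484) stood last at 69.3, 41.8 and 72.5 FPKM. NEB was the sixth and TTN the ninth in all 3 libraries. The places that differed were those of the alpha-actinins, MYBPC2, FLNC and the pair MYOM1 and MYOM2. ACTN3 was the fourth in kid, the second in youth and the fourth in adult. ACTN2 was the third, the fifth and the second. No neighbours in the order were within counting error of each other: the closest were MYBPC2 over ACTN3 in adult, at a ratio of 1.02 (1.01 to 1.03), and FLNC over ACTN2 in youth, at 1.03 (1.02 to 1.04). The highest of the 3 values divided by the lowest had a median of 1.24 over the 10 genes, from 1.02 for TTN to 1.73 for MYOM3. For comparison, this median was 1.31 over 12113 genes whose mean reached 1 FPKM and that were above 0 in every library, and 1.27 over the 630 genes whose mean reached 100 FPKM.

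**Figure D1:**
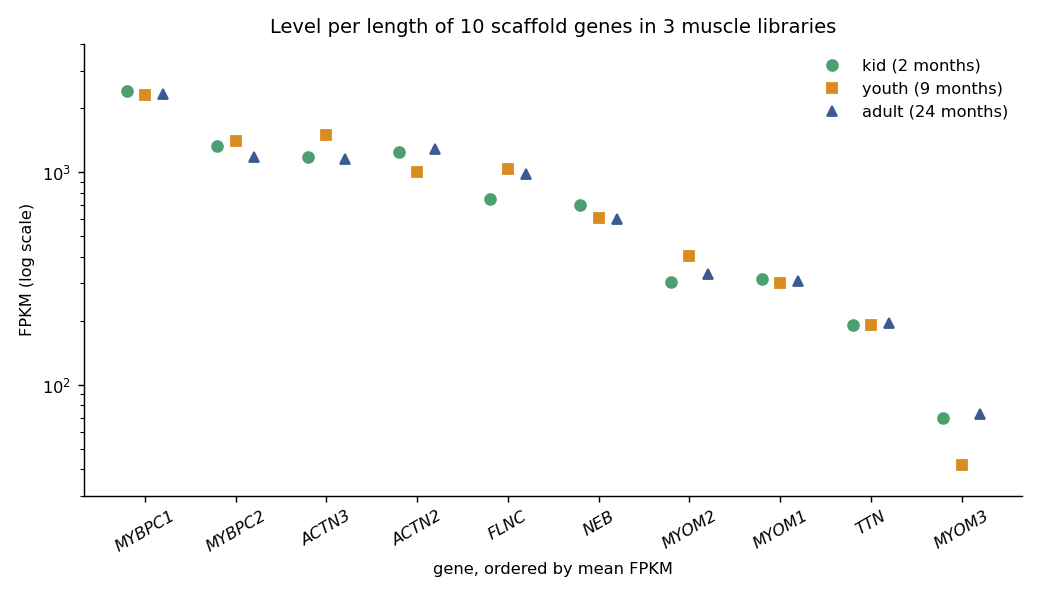
FPKM (log axis) of the 10 scaffold genes in the kid, youth and adult libraries, 1 point per library with no replicates. MYBPC1 is highest and MYOM3 lowest in each library, and MYOM3 shows the widest spread, with youth at 41.8 against 69.3 and 72.5 FPKM.

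Counted as reads and not per length, titin and nebulin moved to the top of the set, above MYBPC1, while MYOM3 stayed last. Titin (gene 102173234) took 2.05% of all reads in kid (2.04 to 2.05), 2.05% in youth (2.04 to 2.06) and 2.08% in adult (2.07 to 2.09). It was the second, the third and the fourth most sequenced gene of the table in these libraries, but only rank 354, 346 and 356 by FPKM. The length behind its FPKM was 107173 bases, the longest of the set, against 22935 for nebulin and 2783 for ACTN3. Nebulin (gene 102180806) took 1.60%, 1.39% and 1.37% of reads. MYOM3, the least sequenced, still had 6971 reads in kid, 3964 in youth and 8474 in adult. Together the 10 genes held 7.05%, 7.07% and 6.99% of all reads in kid, youth and adult, but 1.61%, 1.68% and 1.55% of all FPKM. Levels compared between genes rest on the length model of the authors. Titin and nebulin are spliced differently between muscles, and exons that are in the model but not in the transcripts would lower the FPKM. This was not tested here.

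**Figure D2:**
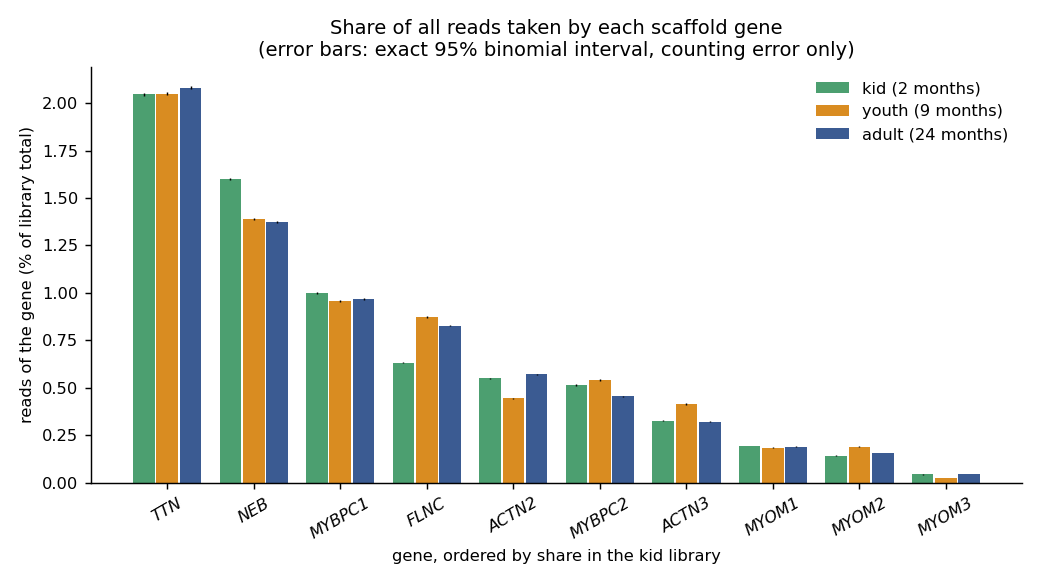
Reads of each gene as a percentage of the library total, with exact 95% binomial intervals that cover counting error only. TTN leads with 2.05% to 2.08% and NEB follows with 1.37% to 1.60%, while the 3 myomesins take the smallest shares.

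With the values as deposited, titin was the steadiest member. It was at 191 (kid), 191 (youth) and 194 FPKM (adult), and the 3 libraries were nearly level. The ratio of youth to kid was 1.001 with an interval that included 1 (0.996 to 1.01), and adult was 1.02-fold over youth (1.01 to 1.02). Nebulin was at 698 (kid), 606 (youth) and 599 FPKM (adult), with kid apart from the other libraries. It was 1.15-fold lower in youth than in kid (1.14 to 1.16) and 1.16-fold lower in adult than in kid (1.16 to 1.17). The size of these differences moved with the scaling. On the log2(FPKM + 1) scale youth against kid was -0.20, but -0.11 with median-of-ratios size factors and -0.05 after quantile normalization. Adult against kid was -0.22, -0.10 and -0.14 in the same order. Set against titin within each library, a ratio that does not depend on the library total, nebulin stood at 3.65 in kid (3.63 to 3.67), 3.17 in youth (3.15 to 3.19) and 3.09 in adult (3.07 to 3.10). The direction of TTN and NEB in adult against youth and of TTN in adult against kid turned with the scaling of the libraries. These 3 differences were 0.02, -0.02 and 0.02 on the log2(FPKM + 1) scale. With median-of-ratios size factors TTN was no longer the steadiest. Adult against kid was then 0.14 for TTN, against 0.09 for MYOM1 and 0.07 for MYBPC1.

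The M-band genes did not run in parallel. MYOM1 (gene 102174450), the myomesin of all fibres, was at 315 (kid), 299 (youth) and 309 FPKM (adult), values that differ by at most 1.05-fold. MYOM2 (gene 102169157), the M-protein of fast fibres, was at 305, 403 and 333 FPKM, highest in youth. MYOM3 was at 69.3, 41.8 and 72.5 FPKM, lowest in youth, with kid and adult close together. MYOM2 was 1.32-fold higher in youth than in kid (1.30 to 1.34) and 1.21-fold below youth in adult (1.19 to 1.23). MYOM3 was 1.66-fold lower in youth than in kid (1.59 to 1.72) and 1.73-fold higher in adult than in youth (1.67 to 1.80). Adult against kid, MYOM2 was 1.09-fold higher (1.07 to 1.11) and MYOM3 1.05-fold higher (1.01 to 1.08). The directions of MYOM2 and MYOM3 held under each of 7 alternatives of scaling, pseudocount and filter. That of MYOM1 turned with the scaling in all 3 comparisons, where its differences were -0.07, 0.04 and -0.03 on the log2(FPKM + 1) scale.

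Within each library the M-band genes were set against each other. The ratio of MYOM2 to MYOM3 was 4.40 in kid (4.29 to 4.52), 9.63 in youth (9.32 to 9.96) and 4.59 in adult (4.48 to 4.70). Kid and adult were close together and youth stood far above them. The ratio in youth was 2.19 times that in kid (2.10 to 2.28) and 2.10 times that in adult (2.02 to 2.19). MYOM1 to MYOM3 was 4.55 in kid (4.43 to 4.67), 7.16 in youth (6.93 to 7.41) and 4.26 in adult (4.16 to 4.36), again highest in youth but with adult below kid. MYOM2 to MYOM1 was 0.968 in kid (0.952 to 0.985), 1.35 in youth (1.32 to 1.37) and 1.08 in adult (1.06 to 1.09), so the leading M-band gene per length was MYOM1 in kid and MYOM2 in youth and adult. The summed level of the 3 myomesins differed little, at 689.7, 744 and 714 FPKM. Of this sum, MYOM2 made up 44.2% in kid, 54.1% in youth and 46.6% in adult. MYOM3 made up 10.05%, 5.62% and 10.2%, and MYOM1 45.7%, 40.2% and 43.2%. In bulk RNA these shares do not show whether single fibres make several myomesins or different fibres make different ones.

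**Figure D3:**
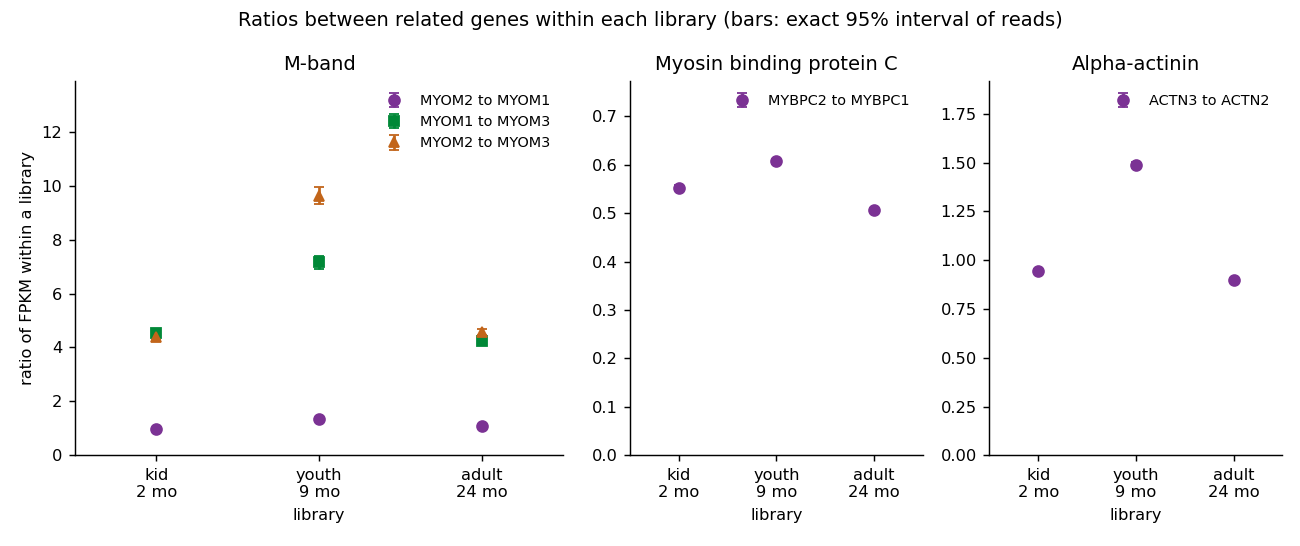
Ratios of FPKM between related genes within each library, with exact 95% intervals of the reads; each panel has its own axis from 0. MYOM2 to MYOM3 reaches 9.63 in youth against 4.40 in kid and 4.59 in adult, and ACTN3 to ACTN2 is above 1 in youth only.

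Myosin binding protein C varied less. MYBPC1, the slow type, was the most abundant member per length in each library, and its 3 values differed by at most 1.045-fold. MYBPC2 (gene 102189612), the fast type, was at 1331 (kid), 1400.3 (youth) and 1179 FPKM (adult), lowest in adult. It was 1.05-fold higher in youth than in kid (1.04 to 1.06), 1.19-fold below youth in adult (1.18 to 1.20) and 1.13-fold lower in adult than in kid (1.12 to 1.14). The ratio of the fast to the slow type was 0.553 in kid (0.548 to 0.558), 0.608 in youth (0.602 to 0.613) and 0.506 in adult (0.502 to 0.510). The slow type led in all 3 libraries, with 64.4%, 62.2% and 66.4% of the summed level of both genes. The direction of MYBPC1 turned with the scaling in all 3 comparisons. The cardiac relative MYBPC3 had 2 reads in kid, 2 in youth and 1 in adult, below the floor of 3 reads.

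The alpha-actinins differed in opposite directions. ACTN2 (gene 102172326), made in all fibres, was at 1239 (kid), 1003 (youth) and 1287 FPKM (adult), lowest in youth. ACTN3 (gene 102179075), the form of fast fibres, was at 1172, 1491 and 1154 FPKM, highest in youth. ACTN2 was 1.24-fold lower in youth than in kid (1.22 to 1.25) and 1.28-fold higher in adult than in youth (1.27 to 1.30). ACTN3 was 1.27-fold higher in youth than in kid (1.26 to 1.29) and 1.29-fold below youth in adult (1.28 to 1.31). Their order per length therefore differed: the ratio of ACTN3 to ACTN2 was 0.946 in kid (0.935 to 0.956), 1.49 in youth (1.47 to 1.504) and 0.897 in adult (0.888 to 0.906). The sum of both genes was 2412 (kid), 2494 (youth) and 2441 FPKM (adult). Adult against kid, ACTN3 was 1.02-fold lower (1.004 to 1.03), a direction that turned under scaling by size factors.

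Filamin C (gene 102170485) showed another order, with kid apart from the other libraries. It was at 748 (kid), 1031 (youth) and 977 FPKM (adult). It was 1.38-fold higher in youth than in kid (1.37 to 1.39), 1.06-fold below youth in adult (1.05 to 1.06) and 1.31-fold higher in adult than in kid (1.296 to 1.32). Relative to titin it stood at 3.92 in kid, 5.40 in youth and 5.03 in adult. Its direction held under each of the 7 alternatives. The sums of the fibroblast and of the macrophage markers were also highest in youth. Of the 6 fibroblast markers 3 were higher and 3 lower in youth than in kid, where 35.7% of all genes tested were higher. The collagens COL1A1 and COL3A1 were at least 1.5-fold higher, next to 5.27% of all genes that far apart. In adult against kid, where FLNC was higher, all 6 fibroblast markers and all 5 tested macrophage markers were lower. Of all genes tested 37.5% were higher there. The part of fibroblasts and macrophages in the values of FLNC was not tested. Filamin A (FLNA), a relative best known outside muscle, was at 53.1, 44.3 and 50.5 FPKM, lowest in youth.

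The 3 pairs of libraries were then compared over the whole set, against the 12121 genes whose mean reached 1 FPKM. All 10 members passed this filter. Each pair shares a library with each other pair, so what is particular to a library appears in both comparisons it enters. A gene was counted as 1.5-fold or 2-fold apart on the log2(FPKM + 1) scale, which understates the difference of low genes.

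In youth against kid, 1 of 10 members (MYOM3, lower) was at least 1.5-fold apart, next to 5.27% of all genes and 4.13% of the 630 genes whose mean reached 100 FPKM. No member was 2-fold apart, against 1.05% of all genes. The difference of MYOM3, -0.72, was larger in size than that of 97.0% of the genes tested. Of the 10 members 5 were higher and 5 lower, while 35.7% of all genes tested were higher. Of the members 9 (all but TTN) were beyond counting error, against 38.5% of all genes. Since the members are among the most deeply sequenced genes, even small differences leave such an interval. The median difference was -0.03 for the members and -0.08 for all genes tested. After division by size factors (median of ratios), which moved the median of all genes from -0.08 to -0.002, 7 members were higher and 3 lower.

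In adult against youth, MYOM3 was again the single member of 10 at least 1.5-fold apart, now higher, next to 10.9% of all genes and 14.9% of those whose mean reached 100 FPKM. Its difference was 0.78. No member was 2-fold apart, against 2.08% of all genes. All 10 members were beyond counting error, against 49.3% of all genes. Of the members 5 were higher and 5 lower, while 47.3% of all genes tested were higher. Once the FPKM sums were made equal, 2 members were higher and 8 lower, where TTN, MYOM1 and MYBPC1 changed sign. The median was 0.0002 for the members and -0.02 for all genes tested.

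In adult against kid, none of the 10 members was 1.5-fold apart, next to 9.24% of all genes and 9.84% of those whose mean reached 100 FPKM, and none was 2-fold apart, against 1.76% of all genes. All 10 were beyond counting error, against 51.2% of all genes. FLNC had the largest difference (0.39), followed by NEB (-0.22) and MYBPC2 (-0.18). The median was 0.001 for the members and -0.10 for all genes tested. With the values as deposited 5 members were higher and 5 lower, while 37.5% of all genes tested were higher. After division by size factors, which moved the median of all genes to 0.001, 8 were higher and 2 lower.

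**Figure D4:**
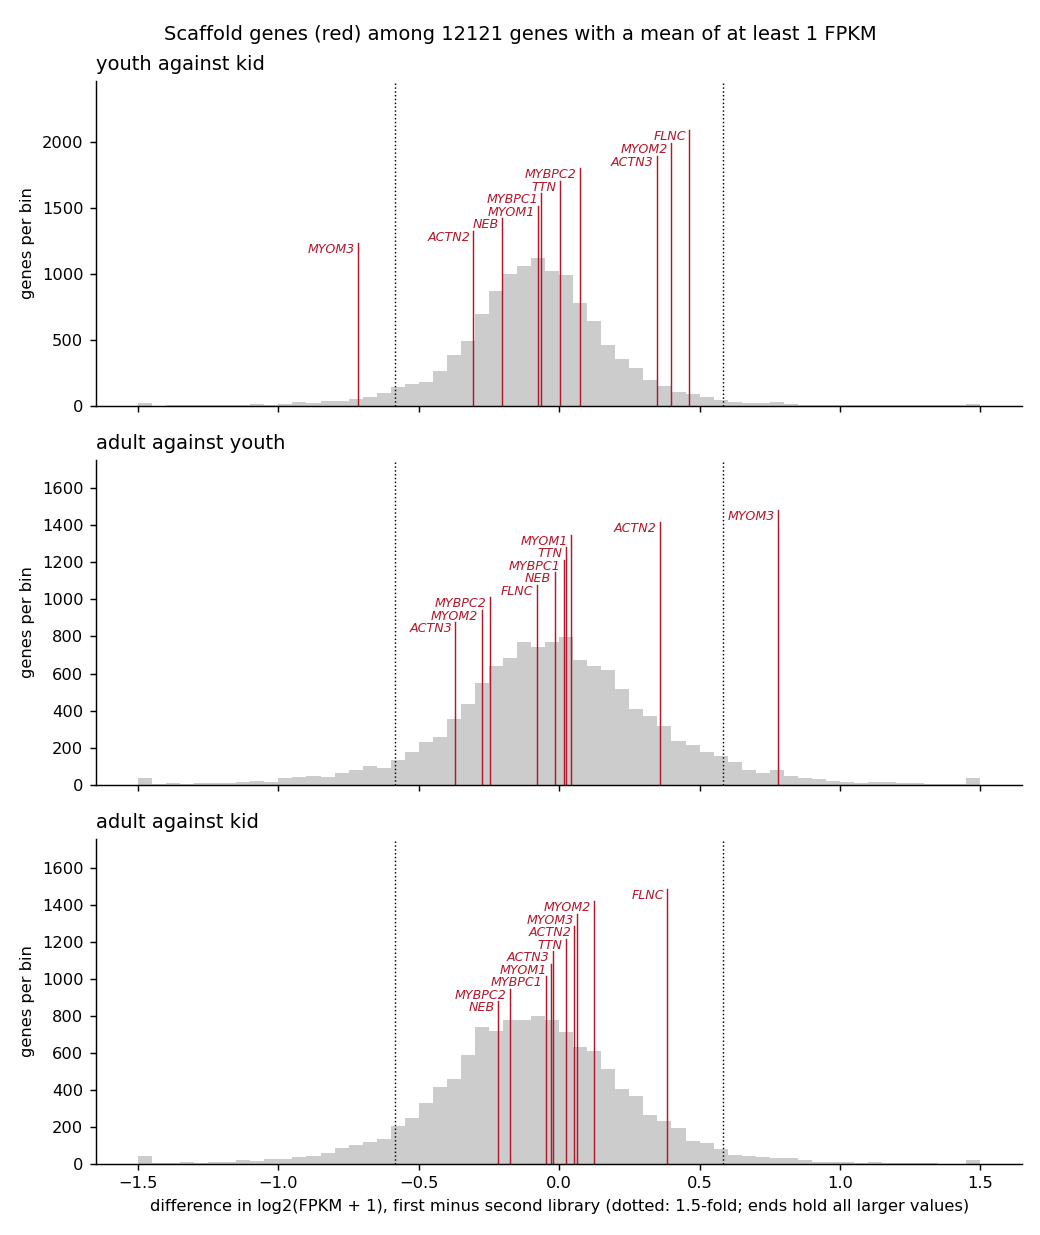
Differences in log2(FPKM + 1) of the 10 scaffold genes (red lines; their height only spaces the names) over the distribution of 12121 genes whose mean reached 1 FPKM (grey), for each pair of libraries. MYOM3 lies past the dotted 1.5-fold line at -0.72 in youth against kid and at 0.78 in adult against youth, and no member does so in adult against kid.

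The members with fast-fibre and general or intermediate forms were set beside markers of fibre type. The ratio of the fast myosin heavy chain genes MYH1 to MYH2 was 1.54 in kid (1.53 to 1.55), 2.64 in youth (2.63 to 2.66) and 0.678 in adult (0.673 to 0.683). Youth was thus the highest library for this ratio as for MYOM2 to MYOM3, ACTN3 to ACTN2 and MYBPC2 to MYBPC1. Adult was well below kid for MYH1 to MYH2 (2.27 times lower), while ACTN3 to ACTN2 was 1.05 times lower and MYOM2 to MYOM3 was 1.04 times higher (1.005 to 1.08). Heavy chain genes have long stretches in common, and the counting of reads that fit more than 1 of them is not stated in the labels. Of 12 tested fast-fibre genes, 8 were higher in youth than in kid, against 35.7% of all genes tested. Among the 12 only PVALB, the calcium buffer parvalbumin, was at least 1.5-fold higher, with 12 reads in kid and 100 in youth. Of all genes tested 5.27% were that far apart in either direction. In adult against youth 4 were higher and 8 lower, while 47.3% of all genes tested were higher. MYH2 was at least 1.5-fold higher and MYH1 and PVALB at least 1.5-fold lower, next to 10.9% of all genes that far apart. MYLPF, the regulatory light chain of fast fibres and the most abundant gene of that list by its mean, went the other way, at 10021 (kid), 8969 (youth) and 10260.5 FPKM (adult). MYL1 and MYH2 did so too. Their differences were -0.24 and -0.44 in youth against kid and 0.16 and 0.79 in adult against youth.

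In youth against kid 35.7% of all genes tested were higher, and of 13 slow-fibre genes 6 were higher and 7 lower. Those at least 1.5-fold apart were the light chain MYL3, lower at 406 against 853 FPKM, and the light chain MYL6B, higher at 1338 against 410 FPKM. In adult against youth, where 47.3% of all genes tested were higher, 7 of the 13 were higher. The 2 at least 1.5-fold higher were MYL3 at 948 FPKM and CSRP3, a muscle LIM protein of the Z-disc, at 821 against 448 FPKM. CSRP3 and MYOZ2 are also in the list of Z-disc and thin-filament partners below. Of the 13, MYL6B was the only one at least 1.5-fold lower, at 523 FPKM. In adult against kid 10 of 13 were higher, against 37.5% of all genes tested, but 7 with equal FPKM sums and 8 after quantile normalization. Myoglobin (MB), at 7025 (kid), 8234 (youth) and 12064 FPKM (adult), was the only one at least 1.5-fold apart there, while none was after quantile normalization and 2 were after division by size factors. Of all genes tested 5.27%, 10.9% and 9.24% were at least 1.5-fold apart in the 3 comparisons. The median of the slow list was -0.12, 0.12 and 0.09 in the 3 comparisons and that of the fast list 0.12, -0.13 and -0.06. After quantile normalization the slow median was 0.02 in youth against kid, and after division by size factors the fast median was 0.05 in adult against kid.

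Of all genes tested, 5.27% were at least 1.5-fold apart in youth against kid, 10.9% in adult against youth and 9.24% in adult against kid. Among 15 partners of titin and the M-band, 1 was at least 1.5-fold higher and 1 lower in youth than in kid. TRIM63 (MuRF1), the ubiquitin ligase that binds titin at the M-band, was at 257 (kid), 644 (youth) and 168 FPKM (adult), highest in youth by far. SMPX, a small muscle protein of the costamere, was at 700.2, 437 and 840.4 FPKM, lowest in youth as MYOM3 was. In adult against youth these were again the 2 genes at least 1.5-fold apart, SMPX 1.92-fold higher (1.87 to 1.98) and TRIM63 3.83-fold lower (3.71 to 3.95). In adult against kid only TRIM63 was, 1.53-fold lower (1.47 to 1.58), and none of the 15 was higher by that fold. The related ligase TRIM54 (MuRF3) was at 273, 291 and 397 FPKM. The median of this list was 0.06, 0.03 and -0.08 in the 3 comparisons. It was -0.03 in adult against youth with equal FPKM sums and 0.03 in adult against kid after division by size factors, where TRIM63 was no longer 1.5-fold lower and 1 other partner was 1.5-fold higher.

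Among 32 partners at the Z-disc and thin filament, none was at least 1.5-fold higher in youth than in kid and 3 were lower, while 1 was higher after division by size factors and 1 after quantile normalization. XIRP2, which binds alpha-actinin and filamin C, was at 403 (kid), 200.5 (youth) and 399 FPKM (adult), so that kid and adult were alike and youth was low. ANKRD2, which binds the spring region of titin, was at 110.1, 44.8 and 157 FPKM, lowest in youth as well. Its relative ANKRD1 was at 475 (kid), 202 (youth) and 146 FPKM (adult), with kid apart. In adult against youth 23 of 32 were higher, against 47.3% of all genes tested, 3 of them at least 1.5-fold (ANKRD2, XIRP2 and CSRP3) and none was lower by that fold, while with equal FPKM sums 19 of 32 were higher. In adult against kid 26 of 32 were higher, against 37.5% of all genes tested, 1 at least 1.5-fold (XIRP1) and 1 at least 1.5-fold lower (ANKRD1). With equal FPKM sums 22 of 32 were higher, after quantile normalization 23, and after division by size factors 29, 4 of them at least 1.5-fold. DES, the intermediate filament protein desmin and the most abundant gene of the list, was at 4115, 3994 and 4138 FPKM. The median was 0.01, 0.15 and 0.12. In the same 3 comparisons 5.27%, 10.9% and 9.24% of all genes tested were at least 1.5-fold apart.

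Among the paralogs of the members, 6 of 8 were tested. MYBPH, a short relative of myosin binding protein C, was the only one at least 1.5-fold apart. It was at 168 (kid), 93.7 (youth) and 159 FPKM (adult), 1.79-fold lower in youth than in kid (1.71 to 1.88) and 1.70-fold higher in adult than in youth (1.62 to 1.78). The nonmuscle alpha-actinin ACTN1 was at 15.8, 18.5 and 16.3 FPKM, its relative ACTN4 at 55.6, 69.5 and 63.5 FPKM, and nebulette (NEBL), the nebulin relative best known from heart, at 2.53, 2.04 and 2.89 FPKM. Of 9 RNA-binding proteins of muscle splicing, none was 1.5-fold apart in any comparison. Beside both lists, 5.27% of all genes tested were 1.5-fold apart in youth against kid, 10.9% in adult against youth and 9.24% in adult against kid. RBM20, which regulates titin splicing, was at 14.1 (kid), 17.02 (youth) and 18.8 FPKM (adult). MBNL1, the most abundant, was at 103, 120.5 and 89.7 FPKM, PTBP1 at 27.1, 29.9 and 20.7, and CELF2 at 9.06, 8.44 and 6.67.

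**Figure D5:**
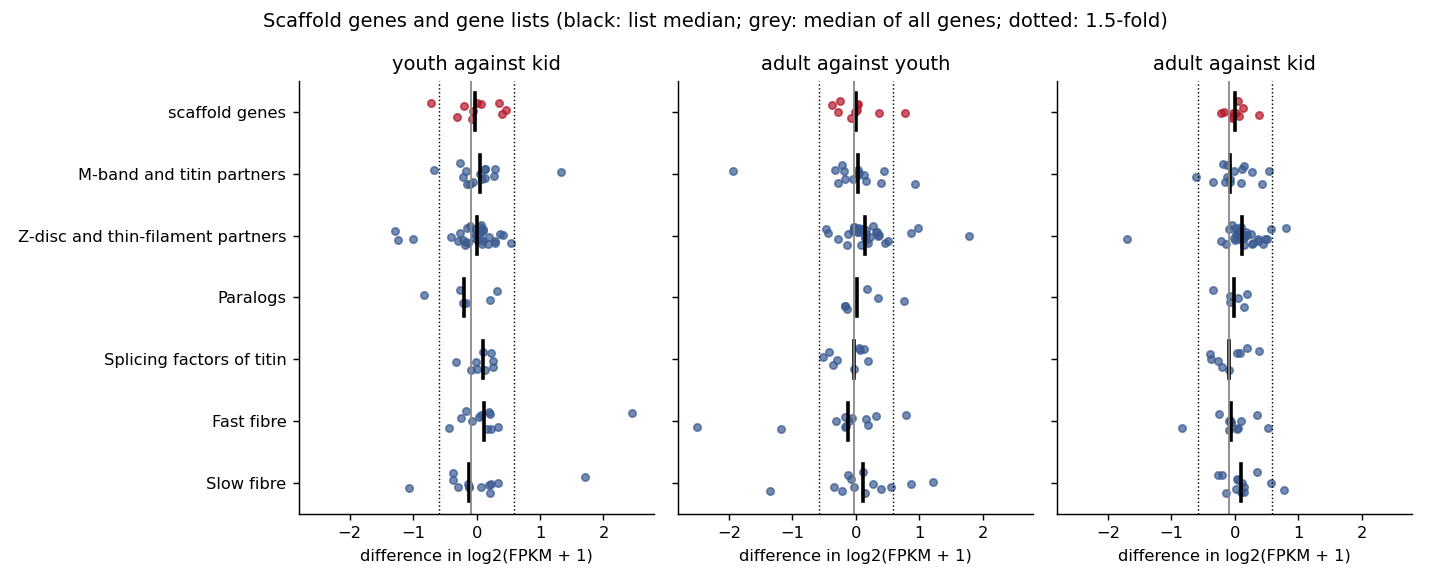
Differences in log2(FPKM + 1) of the 10 scaffold genes (red) and of each gene in 6 lists (blue) for each pair of libraries; points are spread at random in height, black bars are list medians and the grey line is the median of all genes tested. Most scaffold genes lie within the dotted 1.5-fold lines, and single partners such as TRIM63, ANKRD1, ANKRD2 and PVALB lie far outside.

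The genes whose 3 values ran most like those of each M-band gene were sought among 1144 named genes whose mean reached 50 FPKM, by the largest gap between centred log2(FPKM + 1) values over the 3 libraries. For MYOM2 these were PGK1, an enzyme of glycolysis (largest gap 0.004), LMOD3, an actin nucleator of the thin filament (0.02), and PFDN4, a prefoldin subunit (0.02). For MYOM3 they were TNIP1 (0.07), CILP (0.07) and MYBPH (0.09), all lowest in youth. For MYOM1, which hardly differed between libraries, they were PDAP1 (0.005), OCIAD1 (0.008) and NEXN, an actin-binding protein of the Z-disc (0.009). With only 3 libraries many genes share such an order. The smooth muscle and pericyte markers were also lower in youth than in kid in 8 of 9 cases, where 35.7% of all genes tested were higher. Their median there was -0.10, near the -0.08 of all genes tested. After division by size factors DES, SMTN and RGS5 were no longer lower in youth. In adult against youth 8 of 9 of these markers were higher, against 47.3% of all genes tested. The smooth muscle heavy chain MYH11, for example, was at 28.6, 14.5 and 27.6 FPKM. DES and SYNPO2 of this list are also among the Z-disc and thin-filament partners. All 5 tested adipocyte markers and all 5 tested Schwann cell markers were lower in youth than in kid too, with medians of -1.30 and -0.68. Of 5 macrophage markers 4 were higher there. In adult against youth 3 of the 5 adipocyte markers and 1 of the 5 Schwann cell markers were higher. The part of smooth muscle, pericytes and these other cells in the values of MYOM3 was not tested.

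In the gene annotation that the authors deposited beside the values, all 10 genes carried the term protein binding, which 20.9% of all rows carried. Calcium ion binding was given for 2 of the 10, ACTN2 and ACTN3, and kinase activity for 1, TTN, which has a kinase domain. The term actin binding was given for none of the 10, although nebulin, filamin C and the alpha-actinins bind actin, so these terms are incomplete for this set. The 2 further rows called titin-like were not in the RefSeq table. Gene 102178222, with a length of 678 bases, had 23, 26 and 27 reads in kid, youth and adult (2.14, 2.57 and 2.16 FPKM). Gene 102176389 was listed at 0.0452 FPKM in youth and at 0 in kid and adult. Whether they are parts of titin was not tested, and their values were not added to those of TTN.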

How the data were processed

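The authors deposited 1 table of FPKM with 1 column per library, each tied to its group by the letter in its title. FastQC, TopHat2 and DESeq are named without version or role, per the submitters' processing notes. The sources used here do not give the genome build, the annotation or the counting of multi-mapped reads. Because FPKM divides by the library total, a few abundant genes can shift the rest.

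Library totals were found from the common step of the values, and reads and length of each row as the smallest length giving whole reads in all libraries, within 5e-05 of a read and a rounding allowance of 6e-10. All 16054 rows above 0 in 3 libraries were resolved. Reads and length can share a factor, which widens an interval. The totals are 2 times those the step gives, the smallest multiple at which all were whole numbers. On simulated libraries of 17211 entries, 91.1% returned exactly the simulated reads. The simulation took over the recovered lengths and totals, so it cannot show that these are right for the real libraries. Totals were 15829474 (kid), 14920689 (youth) and 18399385 (adult), and 3 reads in 1 kb were worth 0.190, 0.201 and 0.163 FPKM.

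Differences are on log2(FPKM + 1), with a pseudocount of 1, among genes whose mean reached 1 FPKM. Ratios have exact (Clopper-Pearson) 95% intervals of the reads, and ratios of ratios a 95% interval from the variance of log counts. No test was run, with 1 library per group. All 10 genes are named. A further gene that the choice of members finds, and 2 genes that the rule for named list genes gives, are not reported here. From each of 6 partner lists the most abundant gene and the 3 with the largest difference are named, and further list genes and MYH11 were named after their values were seen, as were genes past 1.5-fold. Of 140 list genes (10 marker lists included) 134 had an entry, 9 of them by product text. Lists and members were chosen with earlier results of these data known. Analyses used Python 3.11.15, numpy 2.4.6, scipy 1.17.1 and pandas 2.3.3. Sequences of the genes were not used here.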

Additional observations from a re-analysis of the deposited data

How the results depend on the processing

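The number of members at least 1.5-fold apart (1 in youth against kid, 1 in adult against youth and 0 in adult against kid) was the same under 7 alternatives: pseudocounts of 0.1 and 5, a mean of at least 5 FPKM, no filter, equal FPKM sums, median-of-ratios size factors and quantile normalization. The number of all genes at least 1.5-fold apart moved more. In youth against kid it was 639 as reported, 1190 with a pseudocount of 0.1 and 163 with a pseudocount of 5. In adult against youth it was 1316, 1990 and 503, and in adult against kid 1120, 1829 and 392. With no filter the percentages were 3.38, 6.07 and 5.24. Of 30 differences of members, 10 changed sign under some scaling, all of them under 0.1 in size on the log2 scale. Ratios within a library do not depend on a common scaling. The planned recalculation per coding length was not run, since protein lengths were not used here. The order of levels and the size of these ratios therefore rest on the length model of the authors. The change of a ratio between libraries does not, provided that each gene used the same exons in every library, which was not tested. At these depths counting error is small, and variation between animals of the same age is unknown.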
